A study of Mus musculus with 95 samples.

Results

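The tetraspanin genes, Cd63, Cd9, Cd81, Cd82, Cd37, Cd53 and Cd151, were followed in mouse blood stem and progenitor cells at steady state and during recovery from a transplant. They are 7 of the 53465 gene entries of the counts table and were picked by name, because Cd63 was higher at later weeks and Cd9 was high in stem cells in earlier results of these libraries. The weekly levels of the 7 genes, their steady-state differences between stem and progenitor cells, and the difference of Cd9 between stem and progenitor cells after transplant are therefore given as descriptions, with no test. All 95 libraries came from B6.SJL mice, per the labels, and held RNA of sorted bone marrow cells amplified by SMART-Seq v4, a method for small amounts of RNA. The labels give an age of 8 to 12 weeks for every library, also for those sorted 13 and 16 weeks after transplant. There it cannot be the recipients' age at sorting. If it is the age at transplant, age at sorting rose with the weeks and cannot be told apart from them. The labels name hematopoietic stem cells (HSC) and hematopoietic progenitor cells of kinds HPC-1 and HPC-2, each from untreated mice (8, 8 and 7 libraries) and from recipients irradiated with 900 cGy. The recipients had been given 8000 LSK cells (lineage-negative, Sca-1+, cKit+), and each population was sorted every week from 3 to 6 weeks later and again at 8, 10, 13 and 16 weeks, with 3 libraries per population and time. The labels describe the same sort gate, LSK CD48- CD150+, for all 3 populations, although HPC-1 (CD48+ CD150-) and HPC-2 (CD48+ CD150+) are usually sorted by other gates. Whether the sorted cells were gated on donor origin is not given in the sources used here, nor is it said that libraries with the same label are separate animals. The p-values therefore measure only the spread between libraries, which may be technical.

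Tetraspanins are small proteins that cross the membrane several times and gather integrins, proteases and other receptors into patches. Some sit mainly at the cell surface, such as Cd9, Cd81 and Cd151, while Cd63 also circulates through late endosomes and lysosomes and is carried on exosomes. In blood, Cd9 is known from platelets, their precursors and stem cells, Cd37 and Cd53 are largely restricted to white blood cells, and Cd82 has been linked to stem cell quiescence.

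The stretches upstream of the start sites of Cd63, Cd9 and Cd53 are shown because these genes had 3 different patterns across the populations: Cd63 was highest in HSC, Cd9 was high in HSC and in most HPC-2 libraries, and Cd53 was high in HPC-1. They come from RefSeq on GRCm38.p6, in which start sites of 7 of the 7 genes were found, and are written 5′ to 3′ along the gene's strand. Capitals mark, on either strand, GAGGAA (the core bound by PU.1-type ETS factors), TGTGGT (the RUNX core) and GGGCGG (a GC box). The searched window was the 250 bases before the start. For Cd9 the last 31 of them lie in an annotated exon and are not shown.
Cd63, chr10:128909095-128909344, plus strand: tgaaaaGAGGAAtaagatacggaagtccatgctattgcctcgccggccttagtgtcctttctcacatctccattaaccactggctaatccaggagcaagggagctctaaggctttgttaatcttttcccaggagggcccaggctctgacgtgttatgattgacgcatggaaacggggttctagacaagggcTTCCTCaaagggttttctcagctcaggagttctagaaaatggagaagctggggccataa
Cd9, chr6:125494792-125495010, minus strand: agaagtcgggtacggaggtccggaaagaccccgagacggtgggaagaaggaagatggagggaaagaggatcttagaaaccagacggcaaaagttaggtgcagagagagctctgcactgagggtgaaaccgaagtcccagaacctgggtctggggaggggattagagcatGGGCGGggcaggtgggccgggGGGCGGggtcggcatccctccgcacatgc
Cd53, chr3:106790150-106790399, minus strand: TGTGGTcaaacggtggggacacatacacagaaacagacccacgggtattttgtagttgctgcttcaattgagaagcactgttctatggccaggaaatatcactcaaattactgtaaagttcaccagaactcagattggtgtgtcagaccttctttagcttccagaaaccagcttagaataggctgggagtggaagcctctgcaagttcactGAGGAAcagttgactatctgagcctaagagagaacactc

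The Cd63 window held 2 ETS cores and 6 CpG, the Cd9 window 2 GC boxes and 16 CpG, and the Cd53 window 1 ETS core, 1 RUNX core and 2 CpG. Over the same window of 32851 mouse start sites, 23.3% held an ETS core, 14.0% a RUNX core and 32.7% a GC box, and the median was 6 CpG. AGATAA or TGATAA, the letters of a GATA site, were found in 16.6% of all windows and in none of the windows of the 7 genes. These matches are letters in a window and not binding sites.

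Total counts ran from 3551908 to 8492759 per library, and 3827 to 15697 genes were detected. Fewer than 10000 genes were detected in 12 libraries, here called low libraries: at steady state 3 of HSC and 4 of HPC-2, 2 of HSC and 3 of HPC-2 after transplant, and 0 of HPC-1. Another check found 6 pairs of libraries with nearly the same counts (chi-square per degree of freedom 1.24 to 4.50, against 15.1 for the next pair), all of them across different groups and 4 across different populations, and the 12 libraries in them are called near-identical. By its overall profile each library was also set beside the mean of each population: 5 HSC libraries (steady-state replicate 1, all 3 at 3 weeks and 4 weeks replicate 1) were nearest to HPC-2, 5 HPC-2 libraries were nearest to HSC and 3 to HPC-1, and 1 HPC-1 library was nearest to HPC-2. The sort markers followed the usual definitions more than the labelled gate: Cd48 averaged 16.9 CPM in steady-state HSC, 1230 in HPC-1 and 543 in HPC-2 (CPM, counts scaled to library size by TMM), and Slamf1, which encodes CD150, 68.7, 0.62 and 25.6. In bulk RNA, fewer cells of a type and less RNA per cell cannot be told apart.

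The 7 genes fell into an abundant and a scarce set. Between genes, levels are compared only per kilobase (kb) of exon. Over all libraries Cd9 stood at 255 ± 167 CPM per kb (SD, n = 95), Cd53 at 205 ± 270, Cd81 at 178 ± 61.3 and Cd63 at 147 ± 81.3. Cd37 followed at 24.7 ± 16.4 CPM per kb, and Cd82 (5.09 ± 5.57) and Cd151 (4.92 ± 4.99) were lowest. No count was found for Cd82 in 19 libraries, for Cd53 in 15, for Cd151 in 13, for Cd63 in 2 and for Cd37 in 1, whereas Cd9 and Cd81 were detected in all of them. A count of 0 allowed at most 0.272 to 0.811 CPM at these depths (3 counts), by counting error only, and amplified reads without molecular identifiers are not independent molecules. The SD of Cd53 exceeded its mean, and that of Cd81 was the smallest against its mean among the 4 abundant genes.

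Cd63, the tetraspanin of late endosomes and exosomes (chr10:128900989-128912822, plus strand, GRCm38), was low in HSC early after transplant and high late. At 3 weeks the HSC libraries stood at 270.25, 279 and 604 CPM, and at 4 weeks at 427, 546 and 636 CPM. At 8 weeks they stood at 850.1, 876 and 1069 CPM, and at 16 weeks at 1092, 1131 and 1250.2 CPM. The ranges at 3 and at 16 weeks did not overlap, and the mean at 16 weeks was 3.01-fold that at 3 weeks. Cd63 was picked for being higher at later weeks, and the share of all genes with such a separation was not counted. At steady state the 8 HSC libraries ran from 531 to 1389.5 CPM with a median of 972, so the 16-week libraries lay inside the steady-state range and 3 libraries after transplant lay under it, 2 at 3 weeks and 1 at 4 weeks. In HPC-1 the same order was seen at a lower level, from 168, 229 and 236 CPM at 3 weeks to 525.96, 772 and 829.3 CPM at 16 weeks, a 3.35-fold difference in means, against 425 ± 170 CPM (SD, n = 8) at steady state. HPC-2 libraries overlapped between these weeks, with 138, 271 and 511 CPM at 3 weeks and 172, 359 and 846 CPM at 16 weeks.

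The fitted slope of Cd63 per doubling of weeks was 0.53 on the log2 scale in HSC (SE 0.09), 0.56 in HPC-1 (SE 0.09) and 0.21 in HPC-2 (SE 0.16), where the median gene had -0.05, -0.01 and -0.13. The steps between weeks were mostly small. When the 9 groups of HSC were ordered by mean, 6 of 8 neighbouring pairs differed by less than the larger of their SDs, as did 5 of 8 in HPC-1 and 8 of 8 in HPC-2. All 3 HSC libraries at 3 weeks, where Cd63 was lowest, were among those nearest to HPC-2 in overall profile, and the part of this in the low level was not tested. From 5 weeks on, the HSC mean still went from 758 ± 97.3 to 1158 ± 82.5 CPM (SD, n = 3).

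**Figure D1:**
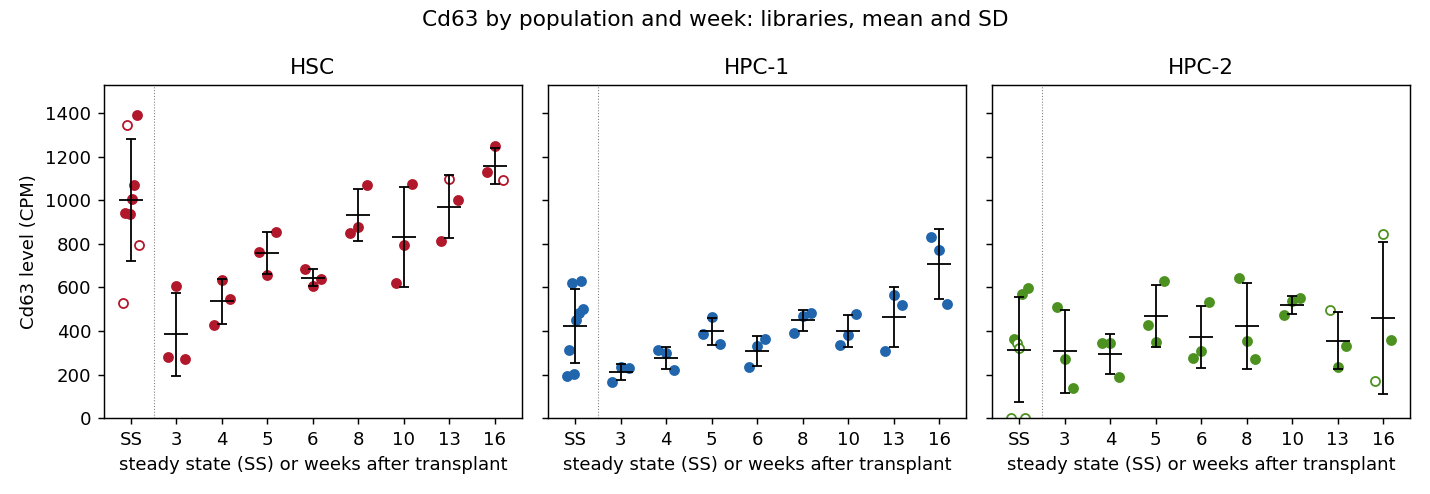
Cd63 level in CPM (vertical axis, linear) by steady state (SS) and week after transplant (horizontal axis), in panels for HSC, HPC-1 and HPC-2. Circles are libraries, open where fewer than 10000 genes were detected, and bars are the mean and SD; the HSC means run from 385 CPM at 3 weeks to 1158 CPM at 16 weeks, beside 1001 CPM at steady state.

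Averaged over the 8 weeks, Cd63 in transplanted HSC did not pass the test against steady state, with 776 ± 266 CPM (SD, n = 24) against 1001 ± 280 (n = 8), a log2 difference of -0.44 (SE 0.14, adjusted p = 0.0671 by edgeR's quasi-likelihood test with Benjamini-Hochberg adjustment over all genes). The median of all 14209 genes tested was -0.39, close to the value of Cd63. That median includes scarce genes, and Cd63 was not compared with genes of a like level. Cd63 passed by DESeq2 (adjusted p = 0.00141), and in edgeR with counts scaled by DESeq2's size factors (log2 difference -0.56, edgeR adjusted p = 0.0144). Under both settings the median of all genes was lower too, as given below. Cd63 also passed in edgeR without the low libraries (-0.54, 0.0415) and when any 1 of 3 libraries was left out. These were steady-state replicate 1, the single near-identical HSC library (-0.52, 0.0254), 3 weeks replicate 2 (-0.50, 0.0301) and 10 weeks replicate 3 (-0.47, 0.0478). Without weeks 3 and 4 it was -0.22 (adjusted p = 0.554). In HPC-1 the log2 difference was -0.16 (SE 0.18, adjusted p = 0.78) and in HPC-2 0.36 (SE 0.73, adjusted p = 1), where 2 low steady-state libraries held no Cd63 count.

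Cd9 (chr6:125460266-125494791, minus strand, GRCm38), a surface tetraspanin of platelets, their precursors and stem cells, rose in transplanted HSC. Steady-state HSC ran from 360 to 670 CPM with a median of 535, and 19 of the 24 transplanted HSC libraries lay above the highest of them. The exceptions were spread over the weeks: the libraries stood at 454, 501 and 714 CPM at 3 weeks, at 557, 817 and 997 CPM at 8 weeks, and at 529, 600.03 and 706 CPM at 13 weeks. At 5 weeks they stood at 907, 1028 and 1208 CPM, and at 10 weeks at 800.2, 1083 and 1619.5 CPM. The HSC means of all 8 weeks lay above steady state, with no order by week, and the slope in HSC was 0.04 (SE 0.13). The average was 881 ± 287 CPM (SD, n = 24) against 524 ± 133 (n = 8), a log2 difference of 0.71 (SE 0.16, edgeR adjusted p = 0.0162). Cd9 was the single tetraspanin of the 7 called in this comparison, in which 5.31% of genes were called, 5.22% lower and 0.0985% higher (14 genes). The share of all genes with as many transplanted libraries outside the steady-state range was not counted, here and for the genes below.

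The call of Cd9 held with each of the 32 libraries left out in turn (adjusted p 0.0166 to 0.0316), without the low libraries (log2 difference 0.60, adjusted p = 0.0471) and without the near-identical ones (0.65, 0.0233). It was lost under 5 of 10 alternatives. Among genes of at least 10 CPM (0.70, edgeR adjusted p = 0.11), with the transplanted libraries as 1 group (0.77, 0.656) and without weeks 3 and 4 (0.79, 0.062), the size was nearly the same. The call was also lost with a block by replicate number (edgeR adjusted p = 0.918). Replicate numbers above 3 occur only at steady state, so that block fitted each of those libraries by itself. Its contrast rested on the steady-state libraries numbered 1 to 3. The last of the 5 alternatives was 1 group with a block for the sets of 12 description numbers described below. In HPC-1 Cd9 averaged 233 ± 73.4 CPM (SD, n = 24) after transplant and 156 ± 31.3 (n = 8) at steady state, and 17 of 24 libraries lay above the steady-state range, but the log2 difference of 0.55 (SE 0.18) had an adjusted p of 0.115 (DESeq2 0.58, adjusted p = 0.0464). HPC-2 libraries spread from 165 to 1249.6 CPM at steady state and from 126 to 1021 CPM after transplant, with a log2 difference of 0.20 (SE 0.33, adjusted p = 1).

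**Figure D2:**
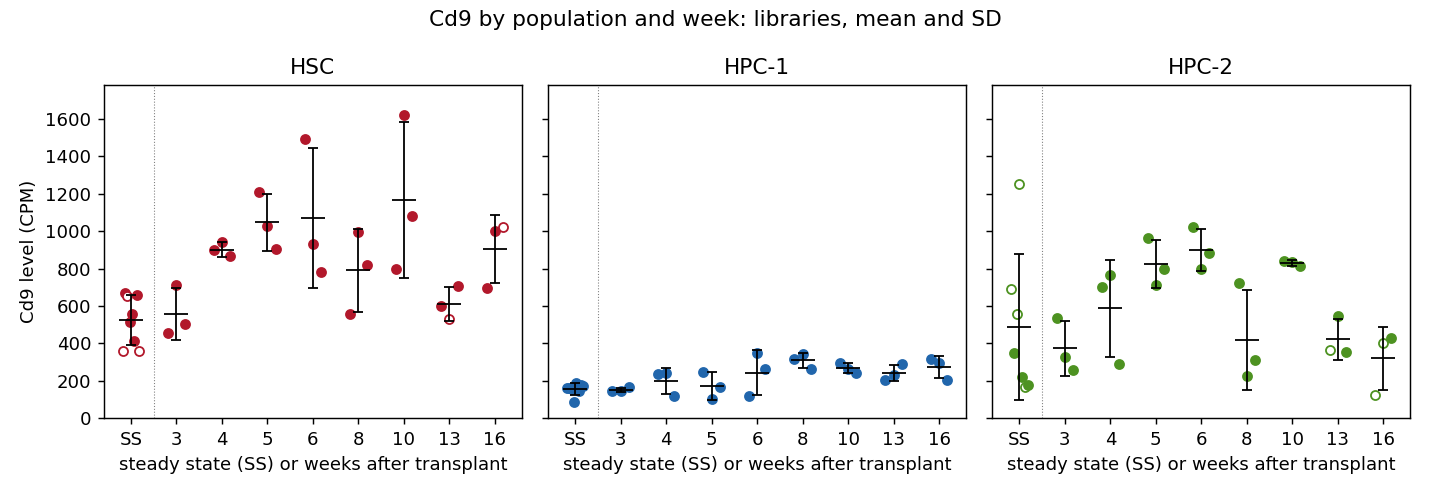
Cd9 level in CPM (vertical axis, linear) by steady state (SS) and week after transplant (horizontal axis), in panels for HSC, HPC-1 and HPC-2. Circles are libraries, open where fewer than 10000 genes were detected, and bars are the mean and SD; in HSC 19 of 24 transplanted libraries lie above the steady-state maximum of 670 CPM, and HPC-1 has a highest library of 351 CPM.

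Megakaryocyte and platelet markers, a list of 10 genes fixed with the design, moved with Cd9. Their summed level in HSC had a median of 1133 CPM at steady state (804 to 1792) and 2008 CPM after transplant (879 to 4970.3). In HPC-1 the medians were 65.4 and 74.3 CPM, and in HPC-2 336 and 1206 CPM. The marker with the highest level was Pf4, a platelet chemokine, which averaged 444 CPM in steady-state and 1436 CPM in transplanted HSC, whereas Gp6, a collagen receptor of mature platelets, was at 0 in every HSC library. The part of these genes in the level of Cd9 was not tested.

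Between populations after transplant, Cd63, Cd82, Cd37 and Cd53 were called between HSC and HPC-1, Cd63 between HSC and HPC-2, and Cd9 and Cd53 between HPC-1 and HPC-2, with Cd9 in HSC left untested. These 3 comparisons used transplanted libraries only, averaged over the weeks, and share libraries with each other. Among all genes tested, 10% were called between HSC and HPC-1 (3.75% higher in HSC, 6.26% lower), 6.92% between HSC and HPC-2 (4.58% higher in HSC, 2.34% lower) and 9.3% between HPC-1 and HPC-2 (7.77% higher in HPC-1, 1.53% lower). With DESeq2's size factors in place of TMM, 577 of 1091 calls of HSC against HPC-2 were higher in HSC, and 679 of 1025 with TMM. Cd63 was higher in HSC than in both progenitor populations, and Cd82, Cd37 and Cd53 were lower in HSC than in HPC-1.

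Cd63 averaged 776 ± 266 CPM in transplanted HSC, 402 ± 163 in HPC-1 and 400 ± 170 in HPC-2 (SD, n = 24 each). HSC exceeded HPC-1 by 0.93 on the log2 scale (SE 0.09, edgeR adjusted p = 2.1e-09) and HPC-2 by 0.87 (SE 0.15, adjusted p = 0.000225). At each of the 8 weeks all 3 HSC libraries lay above all 3 HPC-1 libraries, and at 7 of 8 weeks above all 3 HPC-2 libraries. How many of all genes separate in this way by week was not counted, here and for the genes below. Over all weeks the ranges overlapped: the early HSC libraries reached down to 270.25 CPM and the late HPC-1 libraries up to 829.3 CPM. HPC-1 and HPC-2 differed by -0.06 (SE 0.15, adjusted p = 1). Before transplant the HSC mean was 2.36-fold that of HPC-1 and 3.19-fold that of HPC-2. Without the low libraries the steady-state means were 1068 ± 188 CPM in HSC (SD, n = 5) and 511 ± 130 in HPC-2 (n = 3). Both calls of Cd63 after transplant held under each alternative tried.

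Cd9, chosen because it was high in stem cells, did not overlap between transplanted HSC and HPC-1. HSC ran from 454 to 1619.5 CPM and HPC-1 from 104 to 351 CPM, a log2 difference of 1.89 that carries no test. Ranges that did not overlap were found for 27 of 14900 genes (0.181%) in this comparison, among them Cd9 and Cd53. HPC-2 stood at 584 ± 264 CPM (SD, n = 24) over a range of 126 to 1021 CPM, and HSC minus HPC-2 was 0.61. All 3 HSC libraries exceeded all 3 HPC-2 libraries at 2 of 8 weeks. The difference between the progenitor populations, which did not choose Cd9, was tested: HPC-2 was above HPC-1, with HPC-1 minus HPC-2 at -1.28 (SE 0.15, edgeR adjusted p = 1.86e-07). At steady state the HSC mean was 3.36-fold that of HPC-1 and 1.07-fold that of HPC-2, whose 7 libraries had an SD of 391 CPM around 488. The ratio to HPC-2 depended on the low libraries: without them the steady-state means were 563 ± 107 CPM in HSC (SD, n = 5) and 250 ± 89.2 in HPC-2 (n = 3).

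Cd53 and Cd37, the 2 members largely restricted to white blood cells, and Cd82 had their lowest transplanted means in HSC or HPC-2 and their highest in HPC-1. Cd53 (chr3:106759921-106790149, minus strand, GRCm38) had the widest contrast. At steady state it ran from 0 to 218 CPM in HSC (median 23.5) and from 666 to 1858 CPM in HPC-1 (median 1128). After transplant it ran from 0 to 201 CPM in HSC (median 56.6) and from 249 to 1533 CPM in HPC-1 (median 635). No transplanted HSC library reached the lowest HPC-1 library, at any of the 8 weeks, and the log2 difference was -3.47 (SE 0.50, edgeR adjusted p = 3.5e-06).

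In HPC-2, Cd53 was near 0 in most libraries and high in a few. At steady state 4 of 7 libraries held no count and replicates 5 and 7 stood at 795 and 1103 CPM; both of these are near-identical to libraries labelled HPC-1. After transplant 8 of 24 held no count, the median was 9.06 CPM, and the highest were 8 weeks replicate 2 (1039.7 CPM), near-identical to an HPC-1 library, and 16 weeks replicate 2 (489.7 CPM), a low library. Without low and near-identical libraries the transplanted HPC-2 mean was 18.1 ± 22.9 CPM (SD, n = 18) and the highest library 87.4 CPM. HPC-1 exceeded HPC-2 by 5.62 on the log2 scale (SE 0.74, edgeR adjusted p = 1.24e-06), between 3.24 and 7.40 under the alternatives. All 3 HPC-2 libraries at 13 weeks were at 0, so this fitted size depends on the prior count. HSC minus HPC-2 was 2.17 (SE 0.84, adjusted p = 0.123); it was called without the low libraries (3.35, 0.0276), with no filter on low counts (2.14, 2.04e-05) and by DESeq2 (3.84, adjusted p = 4.51e-06). With all weeks as 1 group the difference was 0.0018 (SE 0.83, edgeR adjusted p = 0.999).

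Cd37 (chr7:45233632-45239115, minus strand) ran from 4.82 to 103.5 CPM in transplanted HSC (median 48.6) and from 31.3 to 253 CPM in HPC-1 (median 122), overlapping ranges with a log2 difference of -1.34 (SE 0.26, edgeR adjusted p = 4e-04). Without the libraries numbered 3 it was -1.26 (adjusted p = 0.0564). HPC-2 lay between at 82.6 ± 32.9 CPM (SD, n = 24) and did not pass the test against HPC-1 (log2 difference 0.51, adjusted p = 0.467) or against HSC (HSC minus HPC-2 -0.83, adjusted p = 0.2). The comparison with HSC was called without the low libraries (-0.82, 0.0214) and by DESeq2 (-0.98, adjusted p = 0.0173). Cd82 (chr2:93419111-93463140, minus strand) was scarce, at 7.13 ± 8.47 CPM in transplanted HSC and 23.7 ± 14.2 in HPC-1 (SD, n = 24 each). The log2 difference was -2.16 (SE 0.67, edgeR adjusted p = 0.0305), and at 4 of 8 weeks all HSC libraries lay below all HPC-1 libraries. This call was not stable: it was lost without the libraries numbered 2 (adjusted p = 0.168) or 3 (0.0766), without the near-identical libraries (-2.12, 0.084), without weeks 3 and 4 (-2.35, 0.0838) and with all weeks as 1 group (-1.74, 0.0826).

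**Figure D3:**
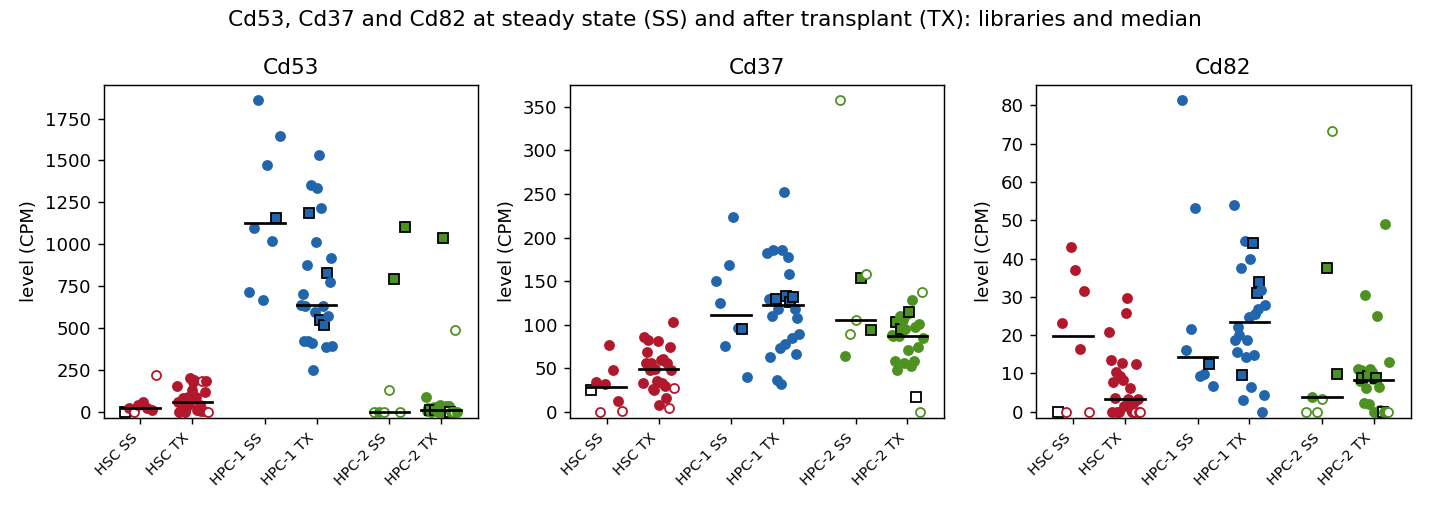
Levels of Cd53, Cd37 and Cd82 in CPM (vertical axes, linear) at steady state (SS) and after transplant (TX) in HSC, HPC-1 and HPC-2. Symbols are libraries, open where fewer than 10000 genes were detected and square with a black edge where near-identical to another library, and lines are medians; the Cd53 medians are 635 CPM in transplanted HPC-1, 56.6 in HSC and 9.06 in HPC-2.

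Lymphoid markers, a list of 4 genes (Dntt, Il7r, Rag1 and Rag2), were high in the population where Cd53 was high. Their summed level had a median of 1084 CPM in steady-state HPC-1 (464 to 2039) and 651 CPM in transplanted HPC-1 (90.1 to 1824). In HSC and in HPC-2 the median was 0 at both stages; the highest transplanted library reached 40.4 CPM in HSC and 749.5 in HPC-2. Dntt, the enzyme that adds bases at antigen receptor joints, made up most of the sum, and Rag1 was at 0 in all 24 transplanted HPC-2 libraries. Other lists also had their highest steady-state median in HPC-1, among them the multipotent progenitor list (6357 CPM, against 468 in HSC and 2406 in HPC-2). The granulocyte and monocyte list (1280, against 440 and 81.8) and the mast cell and basophil list (263, against 11.0 and 76.0) did too. The HSC, erythroid, and megakaryocyte and platelet lists did not. The part of any of these lists in the level of Cd53 was not tested. In HPC-1 itself, Cd53 averaged 756 ± 354 CPM after transplant (SD, n = 24) and 1204 ± 425 at steady state (n = 8), and 13 of 24 libraries lay below the steady-state range. The log2 difference of -0.71 (SE 0.24) had an edgeR adjusted p of 0.12, and with no filter on low counts it was -0.72 (adjusted p = 0.0287).

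Cd81 and Cd151 showed no called difference in any of the 8 comparisons. Cd81 (chr7:143052739-143067934, plus strand), a broadly expressed surface tetraspanin, averaged 509 ± 198 CPM in transplanted HSC, 463 ± 136 in HPC-1 and 478 ± 134 in HPC-2 (SD, n = 24 each). The log2 differences between the transplanted populations ran from -0.05 to 0.09, with SEs of 0.14 to 0.15. Against steady state they were -0.44 in HSC (SE 0.23, edgeR adjusted p = 0.322), -0.14 in HPC-1 (SE 0.19, adjusted p = 0.85) and -0.40 in HPC-2 (SE 0.21, adjusted p = 0.462). In HPC-2, 12 of 24 transplanted Cd81 libraries lay below the steady-state minimum of 478 CPM, and the means of all 8 weeks were lower than at steady state. Cd151 (chr7:141467392-141471473, plus strand), a partner of laminin-binding integrins, averaged 8.16 to 16.5 CPM in the 6 population and stage groups, with SDs of 9.86 to 18.1. Its log2 differences had SEs of 0.59 to 1.42 in the 8 comparisons.

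Seen together against steady state, 1 of the 7 genes was called in HSC, 0 in HPC-1 and 0 in HPC-2 by edgeR. In HPC-1 1.39% and in HPC-2 1.15% of all genes were called. At an unadjusted p under 0.05 there were 2 members in HPC-1, Cd9 and Cd53 (14.6% of all genes), and 1 in HPC-2, Cd53 (12.3%), and DESeq2 called 1 in each. The HPC-2 value was the Cd53 log2 difference of -4.26 (SE 1.35, edgeR adjusted p = 0.0974), which DESeq2 gave as -5.99 (adjusted p = 0.00906); with no filter on low counts it was -4.31 (edgeR adjusted p = 0.00414). Without the near-identical libraries, which include steady-state replicates 5 and 7, it was -1.57 (edgeR adjusted p = 0.995).

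The average transplant effects were also set against each other directly. For HSC against HPC-1, edgeR called 0 of the 7 genes (0.0191% of all genes, 3 genes), with 0 members at an unadjusted p under 0.05 (5.6% of all genes) and 0 called by DESeq2. For HSC against HPC-2 it called 0 of the 7 (0.00648% of all genes, 1 gene), with 1 member at an unadjusted p under 0.05 (3.32% of all genes) and 1 called by DESeq2, in both cases Cd53. Its difference in effect was 4.86 (SE 1.93, edgeR adjusted p = 1), and DESeq2 gave 6.43 (adjusted p = 0.00497). For Cd9 the effect in HSC exceeded that in HPC-1 by 0.18 (SE 0.23) and that in HPC-2 by 0.54 (SE 0.36), both with an adjusted p of 1. Under the alternatives the Cd9 effect in HSC minus that in HPC-2 ran from -0.65 to 0.72. The call of Cd9 in HSC and its absence in the progenitors therefore do not show that the effects differ.

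**Figure D4:**
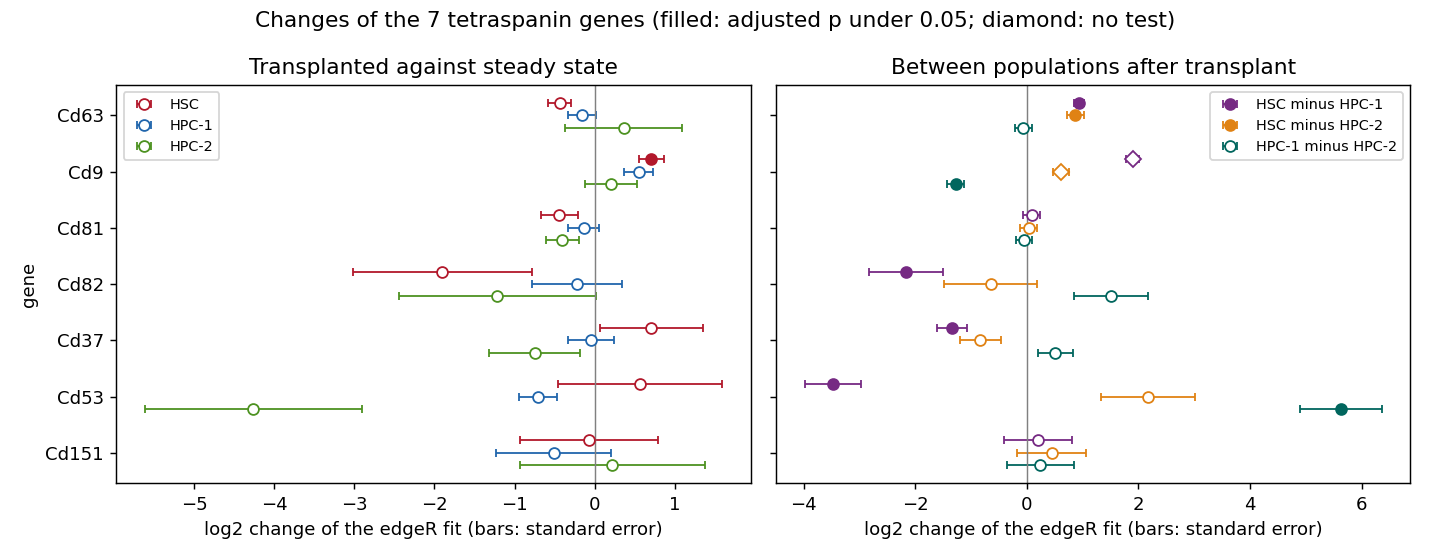
Log2 changes of the 7 genes in the edgeR fits (horizontal axes), for transplanted against steady-state libraries in each population (left) and between populations after transplant (right). Points are estimates, bars the standard error filled points those with an adjusted p under 0.05 and diamonds the Cd9 differences given with no test; on the left the single filled point is Cd9 in HSC at 0.71, and on the right Cd53 has the widest differences, -3.47 and 5.62.

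The rest of the tetraspanin family, a list of 24 genes, and 2 lists of genes that work with tetraspanins were counted in the same fits. Against steady state, 16 other tetraspanins were tested in HSC, of which 0 rose and 3 fell (Tspan9, Tspan12 and Rom1, a photoreceptor disc protein), each with a mean under 2 CPM after transplant, where 5.22% of all genes were called lower; the list median was -0.40 and that of all genes -0.39. In HPC-1 0 of 14 were called (1.39% of all genes; list median -0.29, all genes -0.18) and in HPC-2 1 of 15 (1.15% of all genes), Tspan17, at -4.98 (SE 1.20, edgeR adjusted p = 0.0451). Among 10 tested partners, the integrins and surface proteins that tetraspanins hold, 1 fell in HSC, the fatty acid receptor gene Cd36, at 0.37 CPM after transplant and 3.44 at steady state, and 0 were called in HPC-1 and HPC-2. Of 15 tested genes of the endosome and exosome machinery, which sorts Cd63 into vesicles, 0 were called in each of the 3 populations.

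Between populations after transplant, the share of all genes called was also larger. From HSC to HPC-1, 2 of 16 other tetraspanins were higher in HSC and 3 lower, where 3.75% of all genes were higher and 6.26% lower. Tspan32, which restrains the growth of T cells, was higher at 605 ± 131 against 423 ± 155 CPM (SD, n = 24 each), and Tspan4, a protein of migrasomes, at 285 ± 90.5 against 199.8 ± 59.7. Tspan13 was lower at 602 ± 184 against 859 ± 163 CPM, Tspan2 at 4.88 against 26.1 and Tspan31 at 136 against 178. The list median was -0.15 and that of all genes -0.17. From HSC to HPC-2, 2 of 18 were higher in HSC, Tspan4 and Tspan3 (227 ± 74.3 against 116 ± 54.7 CPM), and 1 lower, Tspan33 (7.41 ± 16.0 against 25.8 ± 26.4 CPM), where 4.58% of all genes were higher and 2.34% lower. From HPC-1 to HPC-2, 2 of 15 were higher in HPC-1, Tspan2 and Tspan13, and 0 lower, where 7.77% of all genes were higher and 1.53% lower.

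The partner genes called between populations were mostly integrins of platelets. HSC exceeded HPC-1 in Itgb3 (log2 difference 3.91, SE 0.81), Itga2b (2.11, SE 0.52) and Itga6 (1.00, SE 0.29), and were lower in Igsf8 (-2.50, SE 0.74), an immunoglobulin-like partner of Cd9 and Cd81, so 4 of 10 tested partners were called, where 10% of all genes were; the list median was 0.16 and that of all genes -0.17. Itga2b and Itgb3, which form the fibrinogen receptor of platelets, were also lower in HPC-1 than in HPC-2, at -3.12 (SE 0.52) and -4.04 (SE 0.90), and Igsf8 was lower in HSC than in HPC-2 at -2.98 (SE 0.75). In the endosome list of 15 tested genes, 1 was higher and 1 lower in HSC than in HPC-1, a share near the 10% of all genes. Rab27b, a small GTPase of exosome and granule release, stood at 136 ± 73.6 CPM in HSC, 15.0 ± 16.9 in HPC-1 and 90.1 ± 55.7 in HPC-2 (SD, n = 24 each). Pdcd6ip, the gene of the exosome sorting protein Alix, was lower in HSC than in HPC-1, with 41.2 ± 22.6 against 68.3 ± 29.2 CPM. Between HSC and HPC-2, 0 of the 15 were called by edgeR, and between HPC-1 and HPC-2 Lamp2 was higher (0.40, SE 0.12) and Rab27b lower (-2.68, SE 0.63).

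Across the means of the 27 groups, the genes most like Cd63 among 8317 genes of at least 10 CPM were Rida (Spearman's rho 0.906), Myct1 (0.904), Vamp8 (0.899), Guca1a (0.877) and Gng11 (0.874). Those most like Cd9 included Pf4 (0.965), Rab27b (0.921), Aldh1a1 (0.913) and Gp1bb (0.912). Pf4 and Gp1bb belong to the platelet markers above. Among the members, Cd63 and Cd9 had a rho of 0.543, Cd82 and Cd53 0.622, and Cd9 had -0.652 with Cd82 and -0.571 with Cd53. The groups share populations, libraries of unequal quality and scaling, so these values only describe the 27 means.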

How the data were processed

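RNA-seq libraries of sorted HSC, HPC-1 and HPC-2 were analysed from the deposited counts per gene, whole numbers in 95 columns. Per the submitters' processing notes, the authors used Trimmomatic 0.36, HISAT2 2.0.5, Picard and featureCounts with GRCm38 (mm10). Strand setting and annotation release are not given in the sources used here, so reads of genes on opposite strands may be mixed; genes overlapping a member had a mean of at most 8.25 CPM. Cd63-ps and Cd9-ps, pseudogenes of members, held 424 and 13 counts in all. GENCODE M21 gave positions and exon lengths (99.64% of the entries found; 3433 had no symbol).

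Groups came from the titles. For 2 libraries the title gave 10k and they were placed at 10 weeks; 1 HPC-2 library titled 3 weeks had an untreated label, and the title was followed. Labels give no sequencing batch. Their description numbers run in sets of 12, each with the transplanted libraries of 1 week and 1 steady-state library per population. In 1 set the HPC-2 steady-state library is missing. HPC-2 steady-state replicates from number 2 on therefore lie in a later set than same-numbered ones of HSC and HPC-1. Whether a set was handled together is not given, and week and set cannot be told apart.

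Genes were kept with filterByExpr by group, scaled by TMM and tested with the quasi-likelihood F test of edgeR 4.0.16 on 1 mean per group. Adjusted p (Benjamini-Hochberg) was taken over all genes of a comparison, and genes under 0.05 were called. SE is the log2 change divided by the root of F. Averages of 8 weeks were set against steady state, between populations, and as differences in effect. Likeness used log2(CPM + 1). Alternatives were DESeq2 1.42.0, other scaling, filters and grouping, left-out libraries and a replicate block; leaving out weeks 3 and 4, and 1 group per population in the comparisons between populations, were chosen after seeing the data. The procedure was tested on simulated data.

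The 7 members and the gene lists were chosen with earlier results of these data known. All members are named, with the 5 genes most like Cd63 and Cd9 and up to 4 genes of a list by smallest p; 1 of the genes most like Cd9 is not reported here. Tspan31 is named beyond this rule, after its values were seen. R 4.3.3, the data.table package (version 1.17.8), Python 3.11.15, pandas 2.3.3 and matplotlib 3.10.9 were used. Sequences are from RefSeq (GRCm38.p6).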

Additional observations from a re-analysis of the deposited data

Results flagged for a closer look

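In groups of 4 to 10 libraries, a library was singled out where its gap to the next exceeded Dixon's critical value for the range of its group. Of 21 tested combinations of a member and a steady-state group, 3 held such a library, and chance gives about 1 in 20. Cd9 stood at 86.2 CPM in HPC-1 steady-state replicate 4, where the other 7 libraries ran from 144 to 187 CPM. Cd37 stood at 357 CPM in HPC-2 steady-state replicate 1, a low library. Cd53 stood at 218 CPM in HSC steady-state replicate 8, also a low library, where the next highest was 55.8 CPM.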

How the results depend on the processing

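Each comparison was recomputed under the alternatives. Of 1363 member values, 1330 kept their side of the threshold, 15 lost a call and 18 gained one; 66 changed sign, and 0 of these were called under either setting. Of 189 group levels, 5 moved by more than their SD with CPM on total counts, 2 without low libraries and 0 without near-identical ones. The median of all genes in HSC against steady state moved from -0.39 to -0.55 with DESeq2's size factors (RLE) and -0.57 with DESeq2. The causes were not tested.

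Members called against steady state in HSC went from 1 to 2 with DESeq2, with RLE, without low and without near-identical libraries, and to 0 at 10 CPM or more, with the block, with transplanted libraries as 1 group (with or without a block) and without weeks 3 and 4. HPC-1 and HPC-2 each went from 0 to 1 with DESeq2 and with no filter. HSC against HPC-1 went from 5 to 4 with the block, as 1 group, without near-identical libraries and without weeks 3 and 4. HSC against HPC-2 went from 2 to 4 with DESeq2 and without low libraries, to 3 with no filter, and to 1 with 1 group. Counts of members between populations include Cd9, which is a description where HSC enter. The difference in effect between HSC and HPC-2 went from 0 to 1 with DESeq2. With 1 library or replicate number left out, members called ran from 1 to 2 in HSC, 0 in HPC-1, HPC-2 and both differences, 3 to 5 for HSC against HPC-1, 1 to 2 for HSC against HPC-2, and 2 to 3 for HPC-1 against HPC-2, where Cd82 was called without the libraries numbered 3 (3.25, edgeR adjusted p = 0.00909).

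Genes called moved by over 1.5 times as follows. HSC (755): 1 at 10 CPM or more, 2733 with no filter, 0 as 1 group, 3 as 1 group with a block, 0 without weeks 3 and 4; 442 to 1312 with 1 library left out. HPC-1 (190): 113 with DESeq2, 3 at 10 CPM, 2087 with no filter, 2 as 1 group, 1 with its block, 122 without near-identical libraries, 8 without weeks 3 and 4; 93 to 432. HPC-2 (155): 1135 with DESeq2, 352 with RLE, 8 at 10 CPM, 1324 with no filter, 0 as 1 group or with its block, 8 without low libraries, 0 without near-identical ones or weeks 3 and 4; 0 to 304. HSC against HPC-1 (1491): 2912 with DESeq2, 874 at 10 CPM, 681 as 1 group, 983 without near-identical libraries; 547 to 1096. HSC against HPC-2 (1025): 3322 with DESeq2, 252 as 1 group, 1564 without weeks 3 and 4; 461 to 506. HPC-1 against HPC-2 (1363): 2712 with DESeq2, 766 at 10 CPM, 436 as 1 group; 814 to 940. Difference HSC against HPC-1 (3): 412 with DESeq2, 9 without low libraries, and 1 with RLE, as 1 group, without near-identical libraries or without weeks 3 and 4; 1 to 4. Difference HSC against HPC-2 (1): 936 with DESeq2, 0 with RLE and without low libraries, 2 with no filter, 10 as 1 group, 54 without near-identical libraries; 0 to 1.

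Whether replicate numbers pair the libraries was not settled, and the main fits used no pairing. Between populations, the median correlation of same-numbered libraries of a week was 0.025 to 0.041, and that of other numbers -0.024 to -0.014. For HPC-1 with HPC-2, 9 of 24 same-numbered pairs exceeded 0.1, against 7 of 48 others. For HSC with HPC-2 these were 5 of 24 against 4 of 48, and for HSC with HPC-1 2 of 24 against 6 of 48. With the replicate block, genes called were 0 in each of HSC, HPC-1 and HPC-2 against steady state, 746 for HSC against HPC-1, 420 for HSC against HPC-2 and 755 for HPC-1 against HPC-2. Against steady state, the block left only the steady-state libraries numbered 1 to 3 in the contrast, because higher numbers have no transplanted library. Those 0 calls therefore cannot tell pairing from the loss of libraries. Under the block Cd9 in HSC was 0.62 (edgeR adjusted p = 0.918) and Cd82 in HSC against HPC-1 -3.33 (0.0563). Depth limits Cd82, Cd151 and, outside HPC-1, Cd53.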
